A study of Mus musculus with 5 samples.

Results

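Neural lineage genes were followed through a cardiac differentiation of mouse embryonic stem cells as a check for cells outside the cardiac lineage. The set holds Sox1, Pax6, Pax3, Nes, Neurog1, Neurod1, Tubb3 and Olig2, taken by name, synonym or RefSeq accession. All 8 genes were on the array, with 10 probes of 28845, and they are 8 of 14959 named genes. Pax6 and Nes had 2 probes each and the other genes 1.

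The cells differentiated as embryoid bodies, which are floating aggregates of stem cells, and RNA was taken from 4 populations isolated by a marker. Rex1-positive cells at day 0 are undifferentiated stem cells, Bra-positive cells at day 4.5 are early mesoderm, Flk1-positive cells at day 4.5 are cardiac mesoderm, and Nkx2.5-positive cells at day 7.5 are cardiac progenitors. The labels name neither the cell line nor the reporter or antibody behind each marker. Of the 6 possible pairs, 5 were hybridised, each on a single array of 30000 spots read in 2 colours, without a replicate sample or an exchange of dyes. No test over samples was therefore possible, and the only error that can be had is how far the arrays fail to close around a triangle of populations. Rex1 RNA was always in Cy3 and Nkx2.5 RNA always in Cy5, while Bra and Flk1 RNA were in Cy5 against Rex1 and in Cy3 against Nkx2.5.

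Neural tissue arises from ectoderm, not mesoderm, and stem cells in embryoid bodies can enter it when mesoderm-inducing signals are low. Sox1 and Pax6 encode transcription factors of the neural plate and its progenitors, and Nes encodes nestin, an intermediate filament of dividing neural progenitors. Neurog1 and Neurod1 encode basic helix-loop-helix factors that commit progenitors to neurons. Olig2 belongs to the same protein class and marks motor neuron and oligodendrocyte progenitors. Tubb3 encodes the beta tubulin of neurons. Pax3 marks dorsal neural tube and neural crest and is also a gene of the somites, which are mesodermal, and nestin is also made outside the nervous system, for example in young muscle and endothelium.

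None of the 8 genes was called higher or lower in any of the 6 comparisons among populations. A gene counted as changed where 2 readings, both from background-corrected and loess-normalised signals, reached a log2 ratio of 1 in size (a fold of 2) with one sign, and the brighter population was well above background. The first reading is the array that carried both populations. The second is the route through the other arrays, and Flk1 over Bra, which had no array of its own, was read through Rex1 and through Nkx2.5. Each route for Nkx2.5 over Rex1 adds 2 array ratios with the later population in Cy5. A probe's preference for a dye thus enters both readings of that pair with the same sign, and more strongly in the second. In the second reading of every other pair it cancels. Over 24799 genes and unnamed transcripts this rule called 1.38% in Bra over Rex1, 0.956% in Flk1 over Rex1 and 3.13% in Nkx2.5 over Rex1. It called 0.335% in Nkx2.5 over Bra, 0.383% in Nkx2.5 over Flk1 and 0.0242% in Flk1 over Bra. By direction, the higher and lower shares were 1.16% and 0.222% for Bra over Rex1, 0.69% and 0.266% for Flk1 over Rex1, and 2.43% and 0.706% for Nkx2.5 over Rex1. They were 0.274% and 0.0605% for Nkx2.5 over Bra, 0.298% and 0.0847% for Nkx2.5 over Flk1, and 0.0202% and 0.00403% for Flk1 over Bra. Against shares this low, a count of 0 among 8 genes does not set the 8 genes apart from the rest.

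A looser size of 0.5 in both readings also called none of the 8 genes in any comparison. Over all genes that rule called 4.24% higher and 2.01% lower in Bra over Rex1, 3.39% and 2.0% in Flk1 over Rex1, and 7.11% and 4.27% in Nkx2.5 over Rex1. It called 1.05% and 0.681% in Nkx2.5 over Bra, 1.48% and 1.06% in Nkx2.5 over Flk1, and 0.29% and 0.391% in Flk1 over Bra. Of the 48 pairs of readings of the 8 genes, 3 had a first reading of 0.5 or more in size and 0 had both.

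The populations were checked by their sort markers. Zfp42, the gene of Rex1, was lower than in Rex1 cells in all 3 other populations, with readings of -1.74 and -1.19 in Bra, -1.76 and -1.18 in Flk1 and -1.68 and -2.25 in Nkx2.5. T, the Bra gene, had 1.08 and 0.73 in Bra over Rex1. Kdr, the Flk1 gene, had 0.68 and 0.64 in Flk1 over Rex1, and Nkx2-5 had 0.53 and 0.91 in Nkx2.5 over Rex1. These last 3 markers did not pass in both readings. By the same rule 6 of 20 cardiac genes were higher in Nkx2.5 over Rex1, with the cardiac troponin T gene Tnnt2 at 2.46 and 2.51.

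All 10 probes were above the negative control spots in all 10 array channels. Well above background means a net signal over percentile 95 of the 96 negative control spots of the same array and dye, and each of these readings also exceeded the brightest negative control. The margin was narrowest in Rex1, where net signals were 1.41 to 6.53 times that percentile over 30 readings, with a median of 3.05. The range was 2.10 to 7.62 in Bra, 2.52 to 9.85 in Flk1 and 2.84 to 12.5 in Nkx2.5. On the 3 arrays with Rex1, Cy3 net signal was 0.302 to 0.340 times the local background at the median probe, against 0.932 to 1.19 in Cy5. Its part in the lower Rex1 margin was not tested.

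**Figure D1:**
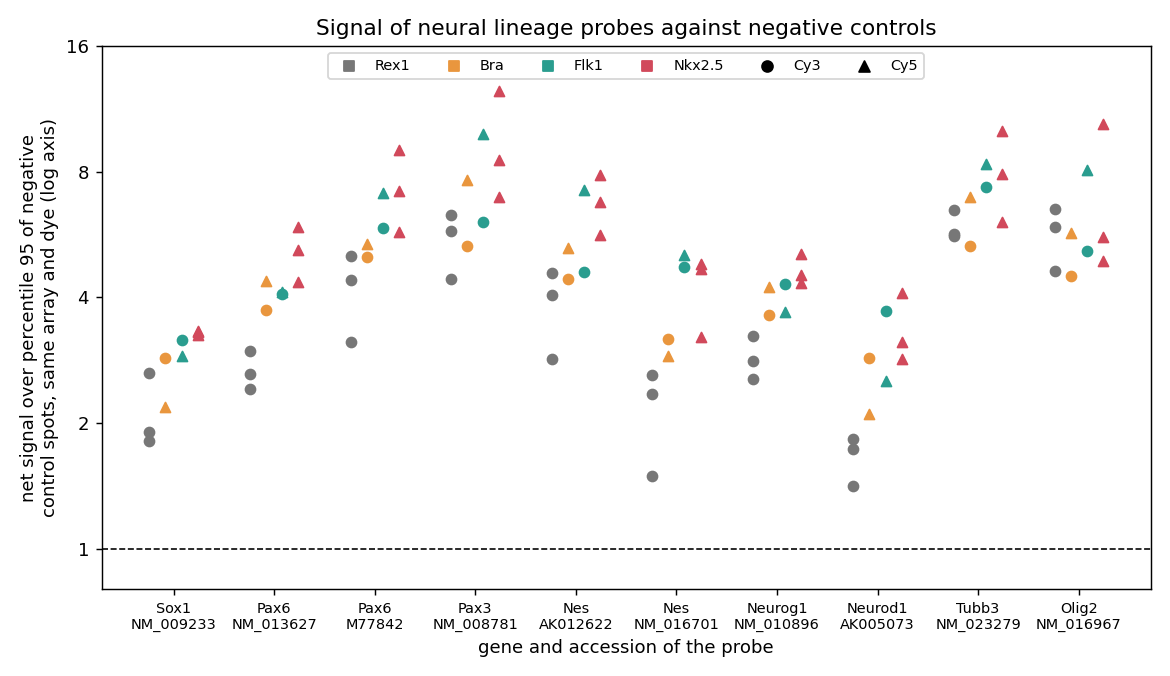
Net signal of each probe as a multiple of percentile 95 of the negative control spots of the same array and dye (log axis), by population (colour) and dye (circles Cy3, triangles Cy5). Every point lies above 1, from 1.41 for Neurod1 in Rex1 to 12.5 for Pax3 in Nkx2.5.

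Most probes of any kind were above the negative controls. Of all 28845 probes, 73.2% passed in all 10 channels. Of the 762 probes for odorant receptors, whose genes are known to be active mainly in the olfactory epithelium, 60.1% passed in all 10 channels. A probe above the negative controls is thus not shown to report a transcript of its gene.

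Neurod1 was the member nearest the negative controls. Its net signal in Rex1 was 2014.5 on the array with Bra and 2243.5 on the array with Nkx2.5, which is 1.41 and 1.83 times percentile 95. With the local background left in both the probe and the controls, Neurod1 was not above percentile 95 in Rex1 on any of the 3 arrays, while the other 9 probes stayed above it in every channel. The second Nes probe, of accession NM_016701, came down to 1.49 times and Sox1 to 1.81 times, both in Rex1 on the array with Bra. Tubb3 stayed at 5.30 times or more and Olig2 and Pax3 at 4.49 and 4.42 times or more. These multiples compare a probe with its own array's controls and do not rank the transcripts of different genes.

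The ratios of the 8 genes, by the brightest probe of each, were small on every array. On the array of Bra with Rex1 they ran from -0.69 to 0.21, on that of Flk1 with Rex1 from -0.57 to 0.11 and on that of Nkx2.5 with Rex1 from -0.53 to 0.12. On the array of Nkx2.5 with Bra they ran from -0.35 to 0.13 and on that of Nkx2.5 with Flk1 from -0.49 to 0.23. Their median size was 0.23 against 0.20 over all genes in Bra over Rex1, 0.16 against 0.19 in Flk1 over Rex1 and 0.22 against 0.22 in Nkx2.5 over Rex1. It was 0.12 against 0.11 in Nkx2.5 over Bra and 0.24 against 0.16 in Nkx2.5 over Flk1. The average error of 1 array was 0.240 on the log2 scale, from the failure of the arrays to close around each triangle of populations, if errors are equal and independent. The failures through Bra and through Flk1 correlated at 0.52 over all genes, against 0.333 under that condition. The value of 0.240 is therefore a rough guide, and any dye preference of the probes is part of it.

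**Figure D2:**
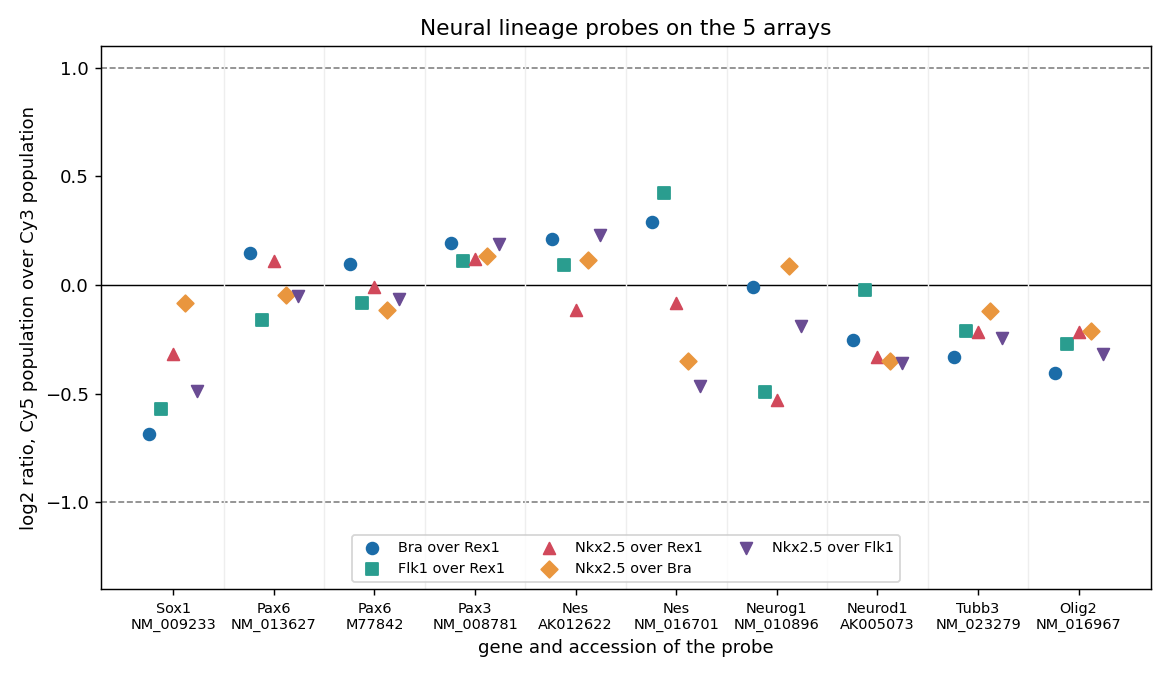
Log2 ratio of each probe on the 5 arrays, Cy5 population over Cy3 population, with dashed lines at the size of 1 that a call needs. No point reaches a dashed line, and the largest is Sox1 at -0.69 in Bra over Rex1.

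Sox1, a gene of the early neural plate, had the largest ratio of the set. Its log2 ratios were -0.69 in Bra over Rex1, -0.57 in Flk1 over Rex1, -0.32 in Nkx2.5 over Rex1, -0.09 in Nkx2.5 over Bra and -0.49 in Nkx2.5 over Flk1. The largest is a fold of 1.61 lower in Bra. The second readings did not repeat these sizes, at -0.23 for Bra over Rex1, 0.17 for Flk1 over Rex1 and -0.92 for Nkx2.5 over Rex1. The sign turned between readings in Flk1 over Rex1 and in Nkx2.5 over each of Bra and Flk1.

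Pax6, the progenitor factor of forebrain, eye and spinal cord, lay nearest 0 over the 5 direct arrays. The brighter of its probes, M77842, had log2 ratios of 0.10, -0.08 and -0.01 for Bra, Flk1 and Nkx2.5 over Rex1, and for Nkx2.5 it had -0.11 over Bra and -0.07 over Flk1. The other probe, NM_013627, read 0.15, -0.16, 0.11, -0.05 and -0.05 in the same order. The probes differed by at most 0.121 on any array. Among 2483 genes with 2 probes, the median difference between the probes of a gene was 0.158 to 0.336, depending on the array.

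Pax3 was the one gene of the set with a ratio above 0 on all 5 arrays. Its log2 ratios were 0.19, 0.11 and 0.12 in Bra, Flk1 and Nkx2.5 over Rex1 and 0.13 and 0.19 in Nkx2.5 over Bra and over Flk1. The second readings were -0.01, -0.07 and 0.31 against Rex1. Both readings were thus above 0 in Nkx2.5 over Rex1, the pair where a dye preference enters both, and not in the other populations. Since Pax3 also belongs to somitic mesoderm, lists of both tissues, each of which holds Pax3 itself, were read beside it. Of 18 neural crest genes 0 were called in any comparison, against 3.55% of all genes, a share at which a list this short may well hold none. Of 19 paraxial mesoderm genes 1 was higher in Bra over Rex1 and in Nkx2.5 over Rex1, the somite gene Uncx, at 1.50 and 1.03 and at 1.09 and 2.11, not well above background in Rex1 on any array. Its estimated bounds were at least 1.26-fold and at least 1.30-fold higher, and are open to dye bias.

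Nes gave different patterns from its probes. The brighter, AK012622, had log2 ratios of 0.21, 0.09 and -0.12 for Bra, Flk1 and Nkx2.5 over Rex1, and 0.11 and 0.23 for Nkx2.5 over Bra and over Flk1. The other, NM_016701, had 0.29, 0.42 and -0.08, and then -0.35 and -0.47. Both probes put Nes slightly above Rex1 in Bra and Flk1 on the direct arrays and neither did so in Nkx2.5. They split on the arrays of Nkx2.5 with Bra and with Flk1, by 0.461 and 0.695. In all 2483 genes with 2 probes, 9.99% and 9.95% differed by as much there. The brighter probe itself was not stable between routes, with readings of opposite sign in 5 of the 6 comparisons. Its direct ratio of Nkx2.5 over Rex1 minus the routes through Bra and through Flk1 was -0.44 and -0.44. For the dimmer probe these differences were -0.02 and -0.04.

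Neurog1, a proneural factor gene, lay below Rex1 in both readings of all 3 other populations. Its direct log2 ratios were -0.01 in Bra, -0.49 in Flk1 and -0.53 in Nkx2.5, with second readings of -0.61, -0.34 and -0.30. In Flk1 the smaller reading, 0.34 in size, was the largest such value in the set by the brightest probe of each gene. In Nkx2.5 over Bra its readings were 0.09 and -0.52, and in Nkx2.5 over Flk1 -0.19 and -0.04. The ratio of Bra over Rex1 was below 0 in 6 of 8 settings. It was -0.255 by least squares over all arrays and from -0.05 to 0.04 in the other settings. Its sign on the direct array was thus not stable. No other member lay below Rex1 in all 6 of these readings, and no member lay above it in all 6.

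Neurod1, which acts after the neurogenins in neuron differentiation, lay below Rex1 in Nkx2.5 in both readings, at -0.33 and -0.49. In Bra over Rex1 it had -0.25 and 0.02 and in Flk1 over Rex1 -0.02 and 0.03. Its direct ratios for Nkx2.5 were -0.35 over Bra and -0.36 over Flk1. Both readings were below 0 in Nkx2.5 against each other population. In Rex1 this probe also had the weakest signal over the negative controls on each of the 3 arrays.

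Tubb3 and Olig2, whose products mark neurons and ventral spinal cord progenitors, had similar ratios. Tubb3 had log2 ratios of -0.33, -0.21 and -0.22 in Bra, Flk1 and Nkx2.5 over Rex1 and -0.12 and -0.24 in Nkx2.5 over Bra and over Flk1. Olig2 had -0.40, -0.27 and -0.22, and then -0.21 and -0.32. Second readings against Rex1 were -0.09, 0.03 and -0.46 for Tubb3, and -0.00 in Bra, 0.10 in Flk1 and -0.60 in Nkx2.5 for Olig2. Both genes were thus below Rex1 on each direct array, and in both readings in Bra and Nkx2.5 but not in Flk1. The second reading in Bra was within 0.1 of 0 for each gene.

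**Figure D3:**
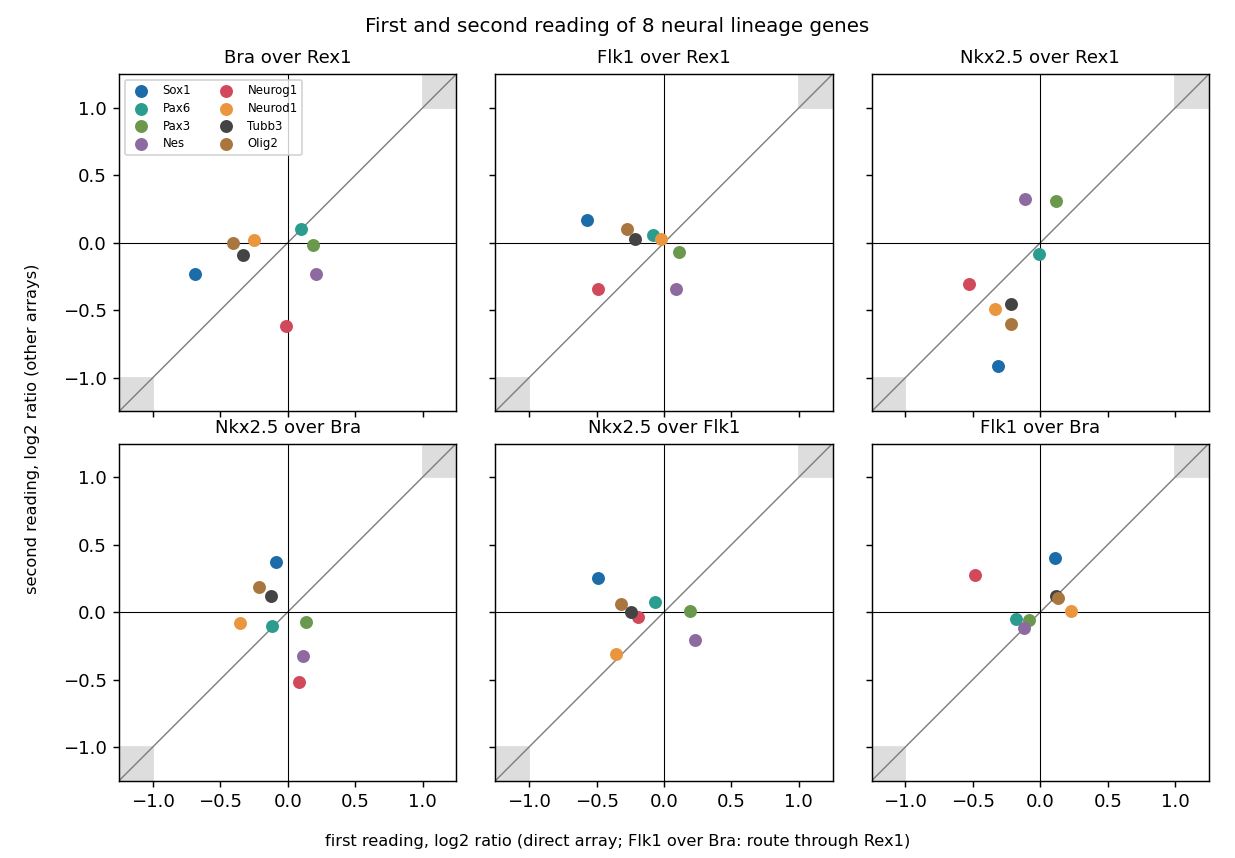
First reading (horizontal) against second reading (vertical) of the 8 genes, as log2 ratios in each of the 6 comparisons, with equal readings on the diagonal line and the areas where a gene would be called in grey. No gene lies in a grey area, and 26 of 48 points have both readings of one sign.

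Across the 8 genes and 6 comparisons the readings had the same sign in 26 of 48 pairs. The share differed between comparisons, with 7 of 8 in Nkx2.5 over Rex1 and in Flk1 over Bra, 5 of 8 in Bra over Rex1, 4 of 8 in Nkx2.5 over Flk1, 2 of 8 in Nkx2.5 over Bra and 1 of 8 in Flk1 over Rex1. Over all genes it was 74.0% in Nkx2.5 over Rex1, 53.2% in Flk1 over Bra, 63.5% in Bra over Rex1, 57.7% in Nkx2.5 over Flk1, 56.7% in Nkx2.5 over Bra and 62.0% in Flk1 over Rex1. By the brightest probe of each gene, the smaller of the readings never exceeded 0.34 in size. In Nkx2.5 over Rex1 the median of the set was -0.22 and -0.38 in the first and second readings, against 0.01 and 0.01 for all genes. In the Bra and Flk1 comparisons with Rex1 the medians were -0.13 and -0.05, and -0.15 and 0.03. A dye preference enters both Nkx2.5 medians and cancels in the second medians of Bra and Flk1. Its part in these medians was not tested.

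The levels were also placed on one scale by least squares over all 5 arrays, with Rex1 at 0. Sox1 was then at -0.61 in Bra, -0.35 in Flk1 and -0.62 in Nkx2.5, the widest range of the set at 0.62. Neurog1 was at -0.26, -0.36 and -0.42, Olig2 at -0.30, -0.18 and -0.41, Tubb3 at -0.27, -0.15 and -0.34 and Neurod1 at -0.16, -0.04 and -0.41. For these 5 genes Rex1 stood highest and Nkx2.5 lowest. The largest step between populations next to each other in any gene's order was 0.35, from Rex1 to Flk1 for Sox1. If every array had the average error, a fitted difference would have an error of 0.240 between Flk1 and Bra and of 0.19 between the other neighbours. The Sox1 step was then 1.85 times its error and each other step at most 1.35 times. No neighbours thus stood apart by 2 errors, but neighbours are by definition the closest populations in an order. Populations further apart differed by more, up to 0.62 for Sox1. For Sox1, Bra stood 0.61 below Rex1, which is past 2 errors of 0.19 for that pair. Other pairs that were not neighbours were not set against an error. The error used here is an average over all genes and not measured for each. Pax6, Pax3 and Nes, each by its brightest probe, kept within ranges of 0.13, 0.22 and 0.12. The dimmer Nes probe, which is not in this fit, had direct ratios against Rex1 from -0.08 to 0.42.

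4 of the 8 genes, Sox1, Neurod1, Tubb3 and Olig2, had a ratio below 0 on all 5 arrays, which 14.9% of all genes did. With Rex1 always in Cy3 and Nkx2.5 always in Cy5, a lower level in the later population and a weaker Cy5 signal give the same sign, and a single array cannot tell them apart. The triangles bear on this, because a constant preference of a probe for one dye would shift both routes alike. The direct ratio of Nkx2.5 over Rex1 minus the route through Bra, and minus the route through Flk1, was 0.45 and 0.74 for Sox1. It was 0.40 and 0.38 for Olig2, 0.24 and 0.24 for Tubb3 and 0.27 and 0.05 for Neurod1. For the brighter Nes probe it was -0.44 and -0.44, and for the brighter Pax6 probe 0.01 and 0.14. Pax3 had -0.21 and -0.18, and Neurog1 -0.61 and 0.15. The gaps had one sign for 7 of the 8 genes, and for 68.9% of all genes. Both gaps use the array of Nkx2.5 with Rex1, so an error on that array also moves them together.

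**Figure D4:**
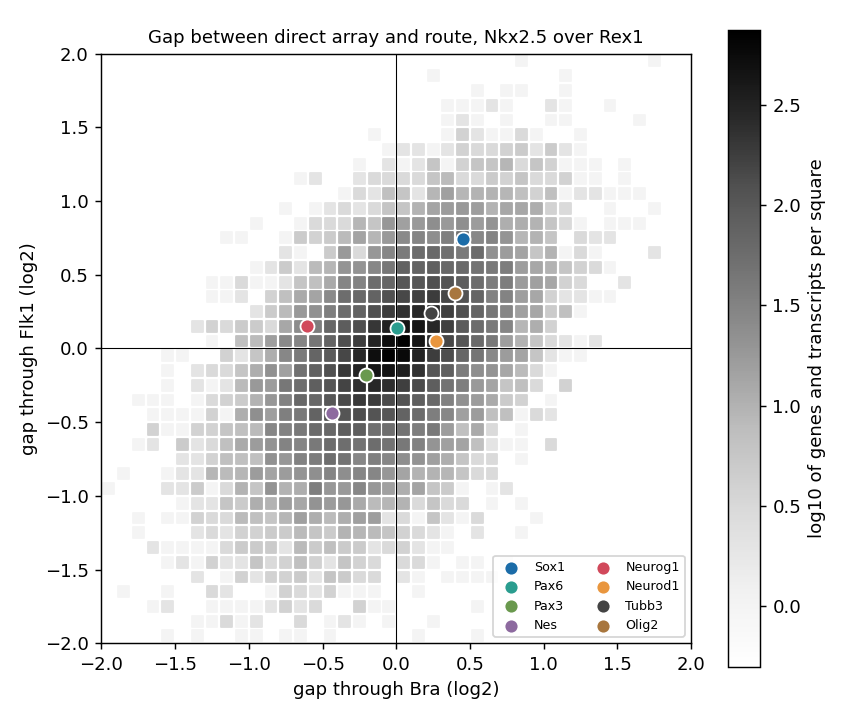
Gap between the direct log2 ratio of Nkx2.5 over Rex1 and the route through Bra (horizontal) or through Flk1 (vertical). Grey squares count all 24799 genes and transcripts (30 lie outside the axes) and coloured points are the 8 genes, of which Sox1 has the widest gap, 0.74, and Neurog1 alone has gaps of opposite sign.

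With 1 dye constant per gene added to the fit, the picture of the set changed. Sox1 moved to -0.16 in Bra, 0.10 in Flk1 and 0.28 in Nkx2.5, Olig2 to -0.01, 0.11 and 0.17, and Tubb3 to -0.09, 0.03 and 0.03. The brighter Nes probe moved the other way, to -0.23, -0.35 and -0.55. The dimmer Nes probe, which is not in this fit, had gaps of only -0.02 and -0.04. Its direct ratios in Bra, Flk1 and Nkx2.5 over Rex1 were 0.29, 0.42 and -0.08. Neurog1 stayed below Rex1 with the same order of populations, at -0.43, -0.53 and -0.76, and was the only member whose order was the same in both fits. Pax3, above Rex1 in every population in the fit without the constant, moved to -0.01, -0.08 and -0.07. No member reached 1 in size in either fit. This fit was added after the values were seen and leaves 1 residual degree of freedom. Its dye constant has an error near 0.339 if arrays have the average error and no dye effect. The fitted constants ran from -0.60 for Sox1 to 0.44 for the brighter Nes probe. Because the average error comes from the same gaps over all genes, any dye preference is already part of the 0.339.

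Beyond the 8 genes, 89 of 92 other listed neural genes were on the array, and 5 of them were called in at least 1 comparison, or 5.62% against 3.55% of all genes. In Nkx2.5 over Rex1 1 was higher and 3 were lower, or 1.12% and 3.37%, against 2.43% and 0.706% of all genes. In Bra over Rex1 0 were higher and 1 was lower, and in Flk1 over Rex1 1 was higher and 0 were lower. In Nkx2.5 over Bra and over Flk1 0 were higher and 1 was lower in each, and in Flk1 over Bra none was called. The medians of these 89 genes lay between -0.06 and 0.07 in all readings.

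The genes that were called fell on both sides, and their calls depended on the processing. Of the 8 calls, 0 were kept without background subtraction, 1 with the deposited subtracted signal and 2 with the series table, while all 8 were kept with a normexp offset of 10 and with median centring. Slc1a3, a glutamate transporter gene of astrocytes and radial glia, was higher in Flk1 over Rex1 at 1.31 and 1.87 and in Nkx2.5 over Rex1 at 1.95 and 1.19. In Rex1 it was well above background on 2 of 3 arrays.

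The genes lower in Nkx2.5 over Rex1 were all of the neuron list, where 0 of 26 were higher. Stmn2, which encodes a microtubule regulator of growing axons, had -1.21 and -1.76, and its call was lost in the fit with a dye term. Syt1, the calcium sensor of synaptic vesicles, had -1.87 and -1.20 and was also lower against Flk1, at -1.03 and -1.44. Scg3, a secretory granule gene, had -1.66 and -1.01, and -1.14 and -1.46 in Bra over Rex1. In Nkx2.5, Scg3 was well above background on 1 of 3 arrays, Syt1 on 2 of 3 and Stmn2 on all 3. Otx2, a forebrain gene that is also active in the epiblast before gastrulation, was lower in Nkx2.5 over Bra at -1.21 and -1.15, while its dimmer probe read -0.39 and -1.43 and did not pass.

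**Figure D5:**
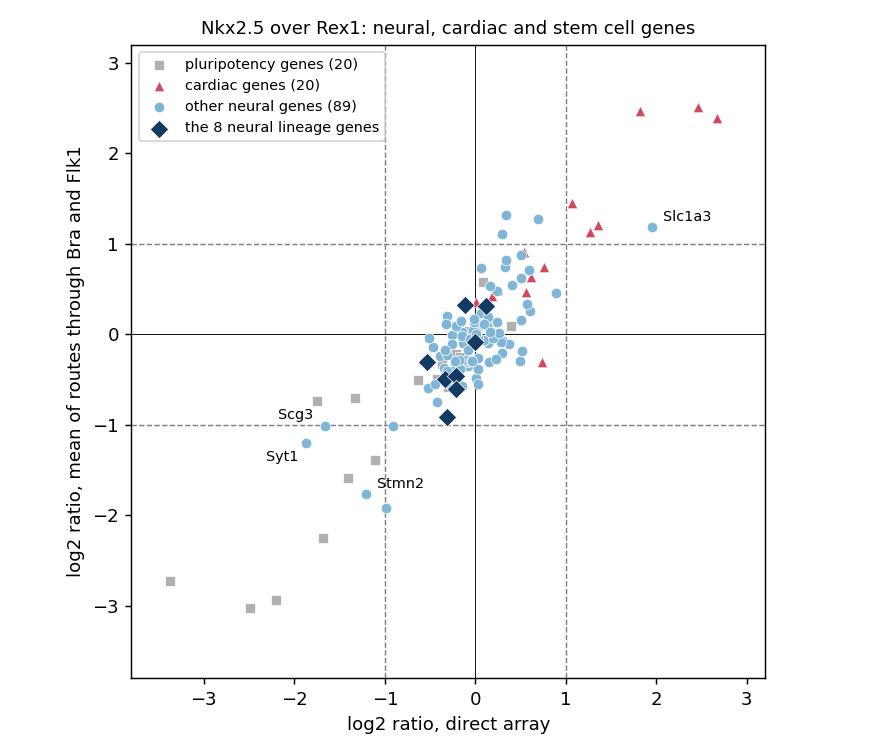
Log2 ratio of Nkx2.5 over Rex1 on the direct array (horizontal) and by its 2 indirect routes averaged (vertical), with dashed lines at 1 and -1. The 8 neural lineage genes (diamonds) lie inside the lines on both axes, 4 of 89 other neural genes lie beyond them on both axes and are named, and 6 of 20 cardiac genes lie beyond them at the upper right.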

How the data were processed

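Per the labels' protocols, RNA was amplified with amino allyl nucleotides before dye coupling. No genome build is named. Each scanner file holds, per the file headers, the authors' intensity values, namely the spot median and a background for both channels. The background is 1 value for each of 48 blocks, already subtracted, and the deposited ratio is the quotient of the scaled intensities, set to 0 for spots marked Bad. No member probe was marked Bad and no spot was saturated. The deposited series table holds log2 values that equal the log2 scanner ratios minus 1 constant per array, with column medians of -0.08, -0.06, -0.06, -0.01 and -0.07. Channel 1 was taken as Cy3, as in the labels, and Zfp42 was lower against Rex1 in that direction.

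Foreground was rebuilt by adding the background back. Normexp (offset 50) and loess within each array followed, giving control spots weight 0, with limma 3.58.1 (R 4.3.3) and Python 3.11.15. Probes were named through RefSeq's gene table of GRCm38.p6, where 8056 probes matched on accession, 5226 on the symbol and 5081 on a synonym of 1 gene only. The brightest probe stood for a gene. Named genes were the 8 members, up to 4 passing genes per list and comparison, and the sort markers. Genes of similar pattern were to be named only for members that passed, and none did. Bounds for genes dim in a population came from channels after Aquantile scaling. The rule was tested on simulated data. The members and the 14 lists were chosen with earlier results of these data known. From these lists 1 gene is not reported here and enters no list count.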

Additional observations from a re-analysis of the deposited data

How the results depend on the processing

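The count of called members was 0 in each direction of all 6 comparisons under each of 10 other settings and in the fit with a dye term, which was chosen after seeing the data. All 10 probes stayed well above background in every population against the highest negative control and against the median plus 3 scaled median absolute deviations. With rebuilt foreground 9 of 10 did in Rex1, without Neurod1, and 10 in each other population. Of the members' 48 log2 ratios, at least 47 moved by less than the average error of 1 array, 0.240, under each of 5 settings: the deposited subtracted signal, an offset of 10, median centring, the mean over probes and the series table. By least squares 3 moved further, and without background subtraction 11 did, where none exceeded 0.197 in size. That setting also left no more than 3 genes called in any direction of any comparison, and for Nkx2.5 over Rex1 2 higher and 3 lower in place of 602 and 175, so it could hardly have shown a change in any gene. For that comparison the counts over all genes were 386 and 131 from the deposited subtracted signal, 345 and 133 from the series table, 950 and 286 by least squares and 1418 and 1148 with the dye term. At a size of 0.5 they were 1764 and 1059. Leaving out those settings of no subtraction and of size 0.5, the higher and lower counts ran from 133 to 606 and 33 to 222 in Bra over Rex1 (287 and 55 as reported) and from 74 to 509 and 41 to 228 in Flk1 over Rex1 (171 and 66). They ran from 42 to 216 and 7 to 219 in Nkx2.5 over Bra (68 and 15), from 44 to 256 and 17 to 216 in Nkx2.5 over Flk1 (74 and 21), and from 4 to 13 and 1 to 13 in Flk1 over Bra (5 and 1). With the dye term 20 moved further and 24 of 48 member ratios took the other sign. Of the 8 calls among other neural genes 0 were left without background subtraction, 1 with the deposited subtracted signal, 2 with the series table, and 7 each with the dye term and with the mean over probes. No paired analysis was possible because each comparison has 1 array. Rex1, always in Cy3, had a weak signal against the local background, and what this means for dim genes was not tested.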

Other observations

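Lists of other tissues were read in Nkx2.5 over Rex1 in the same way, where 2.43% of all genes were higher and 0.706% lower, and 3.55% of all genes were called in at least 1 of the 6 comparisons. Of 11 surface ectoderm genes, the other derivative of ectoderm, 0 were called in any comparison, and of 13 fibroblast and mesenchyme genes also 0. Of 15 endoderm genes 5 were higher and 0 lower, and of 13 blood genes 3 were higher and 0 lower. Of 15 endothelial genes 1 was higher, Sox17, which is also 1 of the 5 endoderm genes. Of 20 pluripotency genes 6 were lower. Of the 12 genes of the glia list 11 were on the array, and Slc1a3 was the only one called in any comparison. In the neural progenitor list of 29 measured genes, which holds Sox1, Pax6 and Nes, 0 were called against Rex1 in any population.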
